A study of Mus musculus with 25 samples.

Results

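Loss of WNK1 was followed 24 hr after injection of anti-CD3ε by comparing 3 libraries of WNK1-deficient thymocytes with 3 libraries of control thymocytes, 6 of the 25 RNA sequencing libraries of the study. The members were taken by their titles, and every gene with a mean of at least 10 over these 6 libraries was compared, 13888 of 48795 genes. Control mice were Wnk1 fl/+, CD2-Cre and Rag1-deficient, and WNK1-deficient mice were Wnk1 fl/fl, CD2-Cre and Rag1-deficient. All were 7 to 8 weeks old, and all had received 150 µg of the antibody. Each library came from a different mouse of a single experiment, from Thy1.2+CD44- thymocytes, a sort that holds the DN3 and DN4 stages. The control cells therefore also carry a deleted allele and the Cre transgene, and the comparison is of 1 intact allele of Wnk1 with none. A human CD2 promoter drives the Cre from early lymphoid stages on, so that the deletion precedes the injection. The loxP sites flank only exon 2 of Wnk1, so that transcripts of the deleted allele are still counted through the remaining exons. The remaining groups of the study, taken without injection (0 hr) or 3 and 48 hr after it, entered the estimate of the spread and the comparison of 24 hr with the other times.

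WNK1 is a serine-threonine kinase that phosphorylates OXSR1 and STK39, which in turn control the cation-chloride cotransporters of the SLC12 family, and in T cells it also takes part in adhesion and migration. A thymocyte that rearranges its TCRβ locus assembles the pre-TCR from TCRβ, the pre-TCRα chain and the CD3 chains, and the signal from this receptor switches off the DN3 programme, starts a burst of division and leads to the double positive (DP) stage. Rag1-deficient thymocytes cannot rearrange the locus and stop at DN3, and anti-CD3ε stands in for the missing signal. Division needs the origins of replication to be licensed and fired, the fork proteins to copy the DNA and a supply of nucleotides, and many of these genes are targets of the E2F transcription factors.

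The deposited values are read counts divided by a size factor for each library, called normalised read counts below. Depth was 46.5, 22.5 and 41.7 M reads in control and 48.6, 24.7 and 28.1 M in WNK1-deficient libraries, in the order of replicates 1 to 3 that is kept in every list of values below. Fold changes are WNK1-deficient minus control on log2(value + 1), with their standard error (SE) and with the adjusted p of limma (Benjamini-Hochberg over the 13888 genes), and genes are called at an adjusted p of at most 0.05. Values of bulk RNA cannot tell fewer cells of a type from less RNA per cell.

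Control replicate 3 stood apart from the other control libraries. On the first principal component of the 25 libraries (35.9% of the variance), control replicates 1 and 2 lay at 59.1 and 59.5 and replicate 3 at -3.75, between the control libraries of 3 hr (-62.6 to -46.3) and the WNK1-deficient libraries of 24 hr (75.9 to 82.6). The 5 genes with the largest gap between this library and the nearer of the other controls on the high side, among those with a mean of at least 100, held 3 DN3 genes. Ptcra, the pre-TCRα chain, stood at 59.2, 115 and 2344 in the controls, Rag1 at 170.2, 143 and 5286 and Rag2 at 28.8, 31.6 and 840.5, the first of these 2 recombinase genes being the one whose product the mice lack. In control thymocytes of 0 hr the means of these genes were 17815, 19138 and 4109.6, so that control replicate 3 lay between the other controls of 24 hr and the uninjected cells. The others were the sugar transporter gene Slc5a9 (38.6, 46.6 and 1244) and the phospholipase gene Gdpd3, which had the largest gap of the 5. Gdpd3 was high in control replicate 3 (932) and in WNK1-deficient replicate 2 (1578) and lay between 14.97 and 24.9 in the other 4 libraries. On the low side were the interferon-induced Gbp6 (322, 223 and 0), Ifit3 (1884, 1740 and 117) and Ifit3b (618, 438 and 36.7), with Gcsam (101, 218 and 9.18), a signalling adaptor of germinal centre B cells, and the sialyltransferase gene St6galnac2 (590.3, 737 and 2.75), which was also low in WNK1-deficient replicate 2.

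The lane code in the sample names puts control replicates 1 and 2 and WNK1-deficient replicate 3 in lane 4, and the other 3 libraries in lane 3, so that control replicate 3 was the only control of lane 3. Control replicate 2 held the least mitochondrial transcript (1.92% of its reads against 2.46% to 3.21% in the other 5) and the most haemoglobin transcript. Over the 10703 genes with a mean of at least 100, the median absolute log2 difference was 0.24 to 0.42 between control libraries, 0.10 to 0.13 between WNK1-deficient libraries and 0.26 to 0.36 between libraries of different genotype. Controls thus differed from each other about as much as from the WNK1-deficient libraries, and the values without control replicate 3 are given beside the groups of genes whose calls it changed. The part of the lane, of depth and of RNA quality in these differences was not tested.

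**Figure D1:**
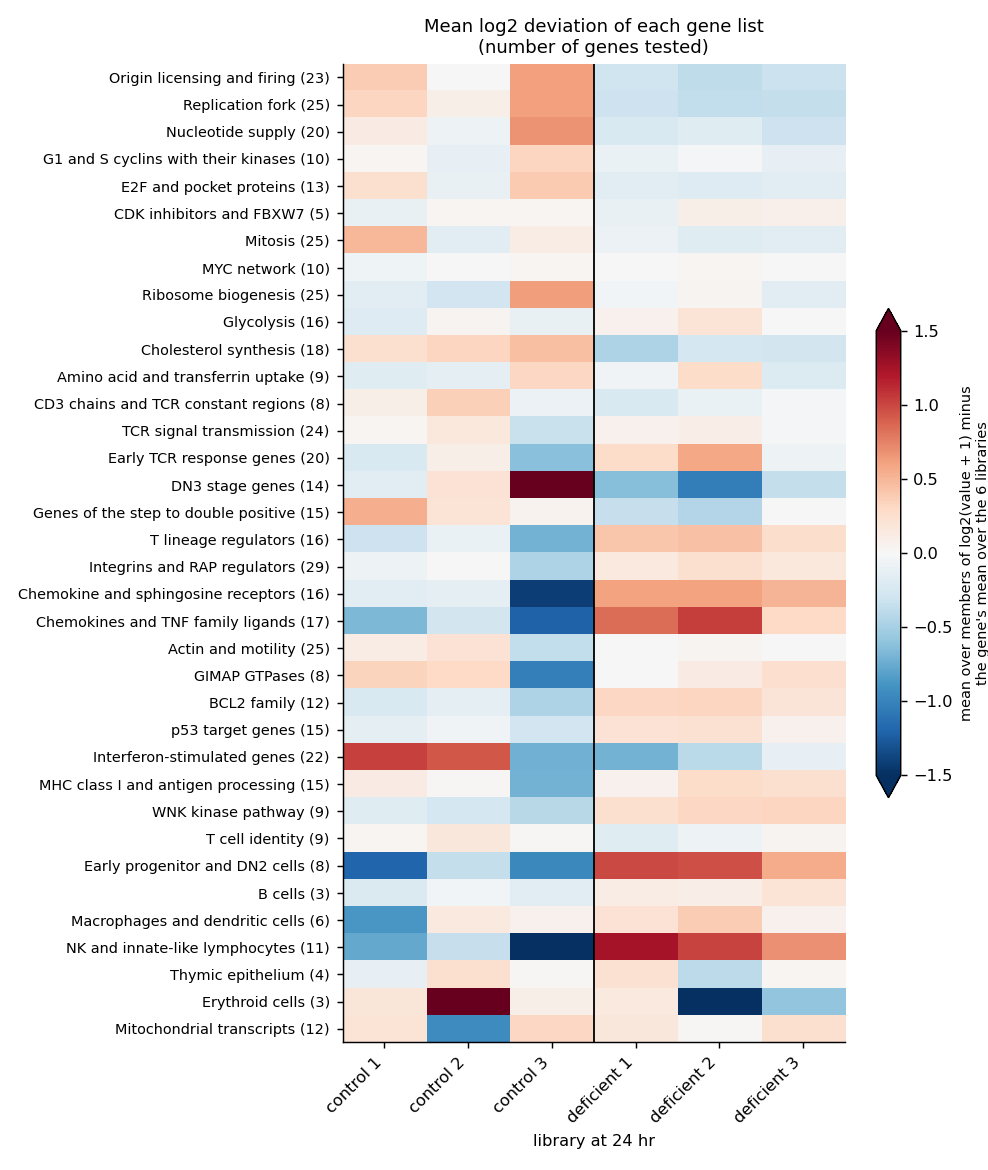
Mean log2 deviation of each gene list (rows, with the number of members tested) in each of the 6 libraries of 24 hr (columns), as the mean over members of log2(value + 1) minus each gene's mean over the 6 libraries, with colours saturated beyond 1.5 either way. Control 3 is high for the DN3 stage genes (1.97) and low for the interferon-stimulated genes (-0.72), where controls 1 and 2 stand at 1.03 and 0.93.

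Wnk1 itself (ENSMUSG00000045962, chromosome 6, positions 119923969-120038695 in RefSeq's GRCm38.p6) was lower in WNK1-deficient thymocytes. Its normalised read counts were 7281, 5433 and 6286 in control and 3056, 3170.3 and 3535 in WNK1-deficient thymocytes, and no control library overlapped with a WNK1-deficient one (log2 fold change -0.95, SE 0.23, adjusted p = 0.0102). The value was -0.95 without control replicate 3, which did not stand apart for this gene. Of 14 genes of the WNK kinase pathway 9 were tested, of which 3 were called higher and 2 lower, Wnk1 included, where 7.41% and 5.53% of all genes tested were called higher and lower.

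The genes around the kinase differed in both directions. Wnk3, a related kinase, was nearly silent in control and present at a low level without WNK1 (3.29, 3.33 and 1.84 in control and 30.4, 29.04 and 36.7 in WNK1-deficient thymocytes; log2 fold change 3.13, SE 0.46, adjusted p = 0.000163). Stk39, a direct substrate kinase of WNK1, stood at 427, 391 and 207 in control and 1308, 1527 and 1202 in WNK1-deficient thymocytes, with every WNK1-deficient library above every control (log2 fold change 2.04, SE 0.35, adjusted p = 0.000723). Its relative Oxsr1 read 2611, 2262 and 2782 in control and 3157, 3379.8 and 2865 in WNK1-deficient thymocytes and was not called (log2 fold change 0.30, adjusted p = 0.0759). Slc12a2, the sodium-potassium-chloride importer NKCC1 that the pathway switches on, was higher (290.2, 185 and 362 in control and 616, 665 and 684 in WNK1-deficient thymocytes; log2 fold change 1.28, SE 0.31, adjusted p = 0.00913). Slc12a7, one of the potassium-chloride exporters that it switches off, was lower (2491, 3144 and 2686 in control and 1578, 1608 and 1858 in WNK1-deficient thymocytes; log2 fold change -0.72, SE 0.19, adjusted p = 0.0157). These calls all held without control replicate 3. Other members of the cotransporter family were not called, with 0.22 for Slc12a4 and -0.01 for the orphan member Slc12a9. The genes called here were also called in the same direction in most of the other groups of the study: Stk39 and Slc12a2 at 0, 3 and 48 hr, Wnk3 at 0 and 48 hr (1.45, adjusted p = 0.0547 at 3 hr) and Slc12a7 at 0 and 48 hr (-0.44, adjusted p = 0.164 at 3 hr).

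Across the transcriptome 1029 genes were called higher and 768 lower in WNK1-deficient thymocytes, 7.41% and 5.53% of the genes tested, and 609 and 359 of these differed at least 2-fold. These shares are those against which the counts for each group of genes below are set. The median log2 fold change over all genes tested was 0.0058. An unadjusted p of limma under 0.05 was reached by 3789 of the 13888 genes, and by 3299 without control replicate 3. Groups that do not overlap were seen for 2412 genes higher and 2360 lower (17.4% and 17%), and 1751 of the 1797 called genes were among them. Without control replicate 3 the counts were 708 higher and 488 lower (5.1% and 3.51%), and 1006 genes, 607 higher and 399 lower, were called in the same direction in both fits. Without WNK1-deficient replicate 1, 2 or 3 the counts were 600, 530 and 672 higher and 415, 368 and 446 lower. A fit of the 6 libraries alone called 582 higher and 433 lower (4.19% and 3.12%), edgeR 6.23% and 6.77%, DESeq2 8.52% and 7.59% and a fit with lane as a covariate 8.29% and 7.06%.

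**Figure D2:**
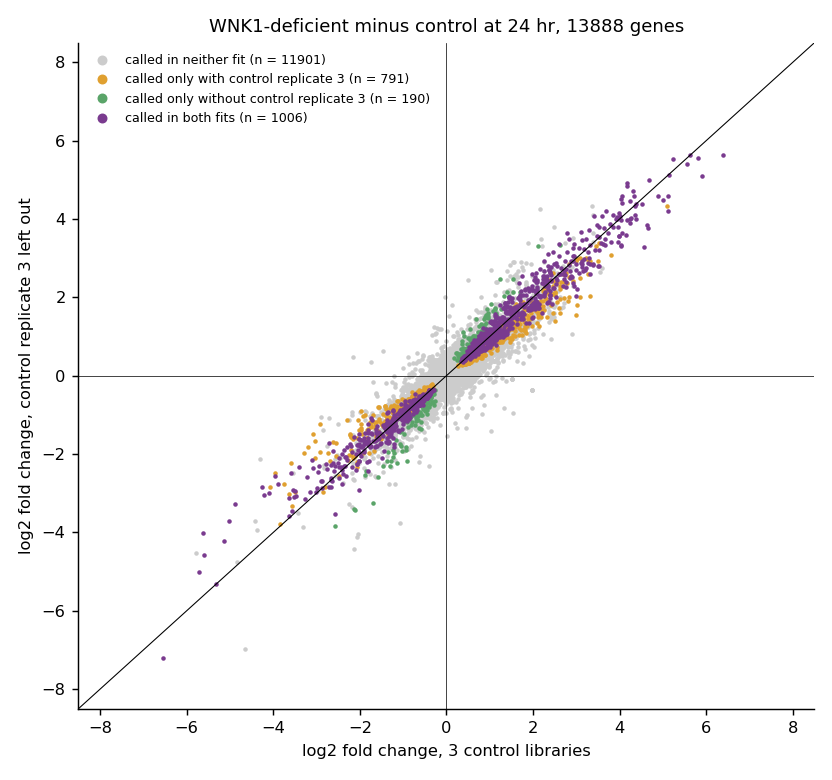
Log2 fold change of each of 13888 genes (points) with all 3 control libraries (horizontal axis) and with control replicate 3 left out (vertical axis), coloured by the fit in which the gene was called, with the line of equality. Genes called only with control replicate 3 (791) lie mostly nearer to 0 on the vertical axis, 190 were called only without it and 1006 in both.

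The raised genes described first are 12 chosen by a rule. It took genes called with and without control replicate 3, with a mean of at least 100 and groups that do not overlap. Among these the 12 had the largest smaller fold change of the 2 fits. Mmp9, a gelatinase that cuts matrix collagen, stood at 6.58, 9.98 and 0.918 in control and 355, 362 and 731 in WNK1-deficient thymocytes (log2 fold change 6.39, SE 1.01, adjusted p = 0.000279). The chemokine gene Xcl1, whose product attracts cross-presenting dendritic cells, read 8.22, 21.6 and 7.34 in control and 1117, 1160.2 and 237 in WNK1-deficient thymocytes (log2 fold change 5.81, SE 0.90, adjusted p = 0.000245). The WNT ligand gene Wnt10b read 4.93, 6.65 and 5.51 in control and 271, 202 and 236 in WNK1-deficient thymocytes (log2 fold change 5.15, SE 0.39, adjusted p = 9.59e-08). All 3 genes were close to silent in every control library, and WNK1-deficient replicate 3 had the lowest level of Xcl1 and the highest of Mmp9 among its group.

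Zbtb7b, which codes for ThPOK, the factor that commits late thymocytes to the CD4 lineage, stood at 16.4, 9.98 and 3.67 in control and 378, 416 and 185 in WNK1-deficient thymocytes (log2 fold change 5.001, SE 0.63, adjusted p = 3.58e-05). Lyl1, a bHLH factor of early progenitors, read 37.8, 169.7 and 24.8 in control and 1147, 705 and 1179.5 in WNK1-deficient thymocytes (log2 fold change 4.15, SE 1.000, adjusted p = 0.009). Control replicate 2 was the highest control for Lyl1 and all WNK1-deficient libraries lay well above the controls. The secreted IGF-binding protein gene Igfbp7 was at 4.11, 4.99 and 0 in control and 271, 342 and 70.8 in WNK1-deficient thymocytes (log2 fold change 5.91, SE 0.88, adjusted p = 0.00017), and Plek, for the protein kinase C substrate pleckstrin, at 43.6, 56.6 and 51.4 in control and 1506, 1202 and 663 in WNK1-deficient thymocytes (log2 fold change 4.38, SE 0.53, adjusted p = 2.36e-05). The groups of these genes did not overlap, as the rule required. The remaining genes of this set were Dscam, an adhesion protein of the immunoglobulin family (5.11), Cxcr5, the receptor for CXCL13 (5.13), Asb2, an adaptor of a ubiquitin ligase (4.65), Serpina3g, a protease inhibitor (4.05), and Fam20a, a secretory pathway pseudokinase (4.04).

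The lowered genes chosen by the same rule included the pre-TCRα chain. Ptcra read 5.93, 3.06 and 3.93 in WNK1-deficient thymocytes against the control values given above (log2 fold change -5.62, SE 1.02, adjusted p = 0.00105; -4.01, adjusted p = 0.00527 without control replicate 3). Odz1, a teneurin of the cell surface, stood at 161, 106 and 1116 in control and 2.23, 7.64 and 5.24 in WNK1-deficient thymocytes (log2 fold change -5.59, SE 0.90, adjusted p = 0.000337; -4.56, adjusted p = 0.00277 without control replicate 3). In both genes control replicate 3 was highest, and the other 2 controls lay above all WNK1-deficient libraries, as the rule required. Ybx2, an RNA-binding protein known from germ cells, was at 298, 178 and 242 in control and 54.1, 0 and 2.62 in WNK1-deficient thymocytes (log2 fold change -5.33, SE 1.25, adjusted p = 0.00728), with WNK1-deficient replicate 1 apart from the other 2. Its call was lost in the 6 libraries alone (adjusted p = 0.0541), with edgeR (adjusted p = 0.0542) and without WNK1-deficient replicate 2.

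The calls of the other lowered genes also held without control replicate 3, since the rule took only such genes. Spats2 read 559, 576 and 1679 in control and 53.4, 67.3 and 73.4 in WNK1-deficient thymocytes (log2 fold change -3.65, SE 0.65, adjusted p = 0.000907) and the sodium channel subunit gene Scn4b 697, 2623 and 1761 in control and 128, 174 and 159 in WNK1-deficient thymocytes (log2 fold change -3.27, SE 0.62, adjusted p = 0.00147). Syt13, a synaptotagmin, read 459, 324 and 559 in control and 43.8, 39.7 and 64.2 in WNK1-deficient thymocytes (log2 fold change -3.15, SE 0.45, adjusted p = 0.000109). In these genes every control library lay above every WNK1-deficient library, which the rule required. Plxdc1, a membrane protein (-2.89), and Ogdhl, a relative of the oxoglutarate dehydrogenase subunit (-3.53), were lower with -2.68 and -3.10 without control replicate 3. The values of Fam163b (-5.01), Slc5a9 (-4.88) and Arhgef10l, an exchange factor of small GTPases (-3.89), moved to -3.71, -3.27 and -2.75 without it.

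**Figure D3:**
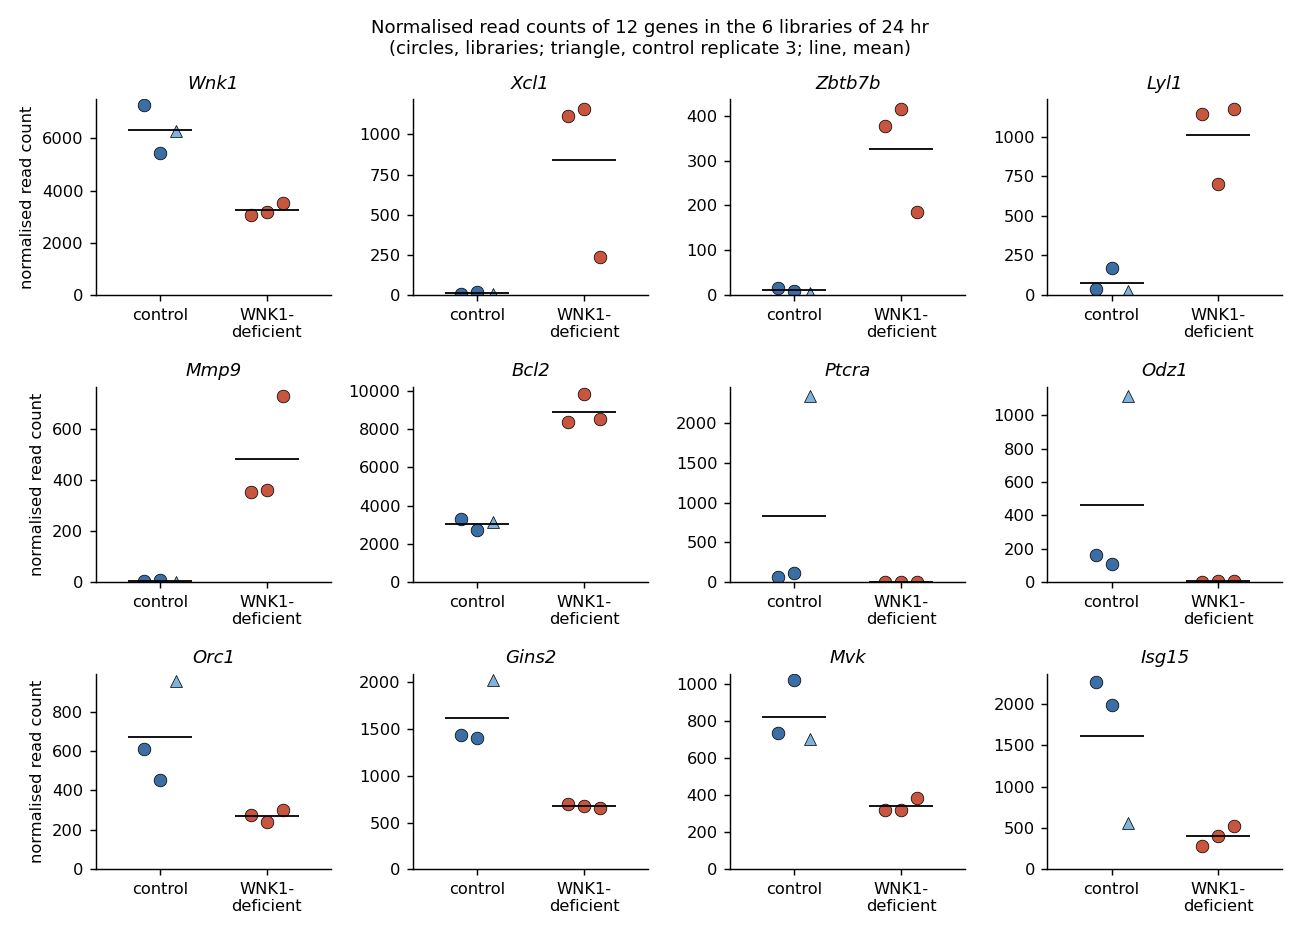
Normalised read counts (vertical axes, linear and starting at 0) of 12 genes in the 3 control and 3 WNK1-deficient libraries of 24 hr, each symbol a library, the triangle control replicate 3 and the line the group mean. Control replicate 3 is the highest library for Ptcra, Odz1, Orc1 and Gins2 and lies with the WNK1-deficient libraries for Isg15.

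A part of the genes of DNA replication was lower in WNK1-deficient thymocytes and none was called higher. Of 23 genes of origin licensing and firing 9 were called lower, and of 25 genes of the replication fork 10, against 5.53% of all genes called lower. The median log2 fold change was -0.70 over the licensing genes and -0.60 over the fork genes. The groups did not overlap, with WNK1-deficient libraries lower, for 15 of the 23 and 22 of the 25, where this was so for 17% of all genes. When control replicate 3 was left out the calls fell to 1 of 23 (Mcm2) and 3 of 25, against 3.51% of all genes, and the medians were -0.55 and -0.48. In that fit 11 genes of each list had an unadjusted p of limma below the threshold of the calls, as did 3299 of all 13888 genes. With that library kept, 11 of each list were called lower in the 6 libraries alone and 11 with edgeR (3.12% and 6.77% of all genes). DESeq2 called 12 of each lower, and the fit with lane as a covariate 12 and 14 (7.59% and 7.06% of all genes). Control replicate 3 had the highest mean level of both lists (0.62 and 0.62 on the log2 scale about the mean of the 6 libraries), and control 1 lay at 0.38 and control 2 at the mean itself for licensing, with both at 0.33 and 0.09 for the fork. All WNK1-deficient libraries were below these, from -0.38 to -0.30 and from -0.37 to -0.31.

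Among the licensing genes Gins2, a subunit of the GINS complex that completes the replicative helicase, stood at 1441, 1402 and 2022 in control and 696, 679 and 657 in WNK1-deficient thymocytes (log2 fold change -1.24, SE 0.31, adjusted p = 0.0118; -1.07, adjusted p = 0.0604 without control replicate 3). Orc1, the origin recognition subunit that binds first, read 610.0, 452 and 955 in control and 278, 240.0 and 300.1 in WNK1-deficient thymocytes (log2 fold change -1.24, SE 0.38, adjusted p = 0.0365; -0.95, adjusted p = 0.163 without). Every control library was above every WNK1-deficient library for both genes, control replicate 3 the highest. Cdc6, which loads the MCM helicase onto origins, was at 3067, 2675 and 4190.4 in control and 1458, 1305 and 1568 in WNK1-deficient thymocytes (log2 fold change -1.17, adjusted p = 0.0405), and Gins1 at 1099.9, 586 and 1295 in control and 428, 393 and 434 in WNK1-deficient thymocytes (log2 fold change -1.17, adjusted p = 0.0301), neither of them called without control replicate 3 (adjusted p = 0.146 and 0.134). Orc1, Cdc6 and Gins1 also lost their calls with control replicate 1 or any single WNK1-deficient library left out. The other called members were Mcm2, Mcm4 and Mcm6 of the helicase, its loading factor Cdt1 and Gins4.

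Among the fork genes Chaf1b, a subunit of the assembly factor that places histones behind the fork, stood at 3112, 3635 and 4450.1 in control and 1497, 1452 and 1509.8 in WNK1-deficient thymocytes (log2 fold change -1.31, SE 0.25, adjusted p = 0.00166; -1.18, adjusted p = 0.0113 without control replicate 3). Pole2, a subunit of the leading strand polymerase, read 1176, 832 and 1408 in control and 482, 454 and 478 in WNK1-deficient thymocytes (log2 fold change -1.24, SE 0.29, adjusted p = 0.00747; -1.07, adjusted p = 0.0425 without). Prim2, of the primase, read 2523, 2326 and 2880.2 in control and 1296, 1212 and 1185 in WNK1-deficient thymocytes (log2 fold change -1.06, SE 0.24, adjusted p = 0.00548; -0.98, adjusted p = 0.0264 without). These 3 genes were the fork members called in both fits, and their WNK1-deficient libraries lay within a narrow range. Tipin, which protects stalled forks, was called only with control replicate 3 (log2 fold change -1.19, adjusted p = 0.0193; -0.94, adjusted p = 0.101 without), as were the sliding clamp gene Pcna, its loaders Rfc2, Rfc3 and Rfc5, the polymerase subunit gene Pold3 and Rpa1, which coats single-stranded DNA.

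Since these genes are textbook E2F targets, their promoters were searched for the E2F site. The 8-letter words TTTCCCGC, TTTGGCGC, TTTCGCGC and TTTGCCGC were searched on both strands of RefSeq promoters (GRCm38.p6, from 250 bases before to 50 after the start set for each promoter), and words may overlap each other. A promoter was given for 39 of the 48 tested genes of both replication lists, and 15 of them (38.5%) held a word, against 473 of 9663 tested genes (4.89%) and 704 of 27025 genes with a promoter (2.6%). Of the 12 called genes with a promoter 7 held one, and of the 27 not called 8. The word CACGTG, the E-box that MYC binds with its partner MAX, was in 7 of the 39 (17.9%) and in 11.8% of the tested genes. It was in 1 of the 12 called genes and in 6 of the 27 not called. Over all 555 genes called lower that had a promoter, an E2F word was in 6.31% and the E-box in 9.91%. Some words lay in the last 150 bases before the promoter start of Mcm6 (chr1:128359706-128359855, minus strand), Orc1 (chr4:108579304-108579453, plus strand), Cdc6 (chr11:98908001-98908150, plus strand) and Rfc3 (chr5:151651209-151651358, minus strand). The stretches of Orc1 and Cdc6 lie inside the genes, which begin at positions 108575705 and 98907709, so that their promoter start is not the first base of the gene. The 150-base stretches of these genes are shown, 5′ to 3′ on the strand of the gene, as the called replication genes whose words precede the promoter start, with the E2F words in capitals.
Mcm6: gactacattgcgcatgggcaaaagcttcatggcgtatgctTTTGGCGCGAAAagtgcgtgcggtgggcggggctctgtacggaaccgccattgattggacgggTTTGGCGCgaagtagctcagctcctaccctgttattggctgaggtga
Orc1: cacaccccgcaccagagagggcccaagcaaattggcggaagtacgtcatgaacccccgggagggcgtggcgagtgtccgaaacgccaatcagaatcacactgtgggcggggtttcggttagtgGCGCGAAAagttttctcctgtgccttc
Cdc6: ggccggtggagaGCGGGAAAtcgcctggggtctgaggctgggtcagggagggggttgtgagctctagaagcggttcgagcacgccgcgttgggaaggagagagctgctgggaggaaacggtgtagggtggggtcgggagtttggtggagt
Rfc3: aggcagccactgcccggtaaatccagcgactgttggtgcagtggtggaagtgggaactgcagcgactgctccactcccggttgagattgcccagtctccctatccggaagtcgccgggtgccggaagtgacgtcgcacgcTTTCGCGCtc
Mcm6 held 3 words, 2 of which overlap, and the others 1 each in the stretch shown. A match describes the sequence only, and no binding was measured here.

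The genes that supply nucleotides and the E2F factors themselves were lower in part. Of 20 genes of nucleotide supply 4 were called lower (median -0.46), against 5.53% of all genes. Limma called 0 of the 20 without control replicate 3, with 4 at an unadjusted p under 0.05, where 3299 of all 13888 genes were. With that library edgeR and DESeq2 called 5 each lower, against 6.77% and 7.59% of all genes. Tk1, which salvages thymidine, read 3250.5, 3171 and 3898 in control and 1619.9, 1400.2 and 1404 in WNK1-deficient thymocytes (log2 fold change -1.22, SE 0.36, adjusted p = 0.0291), and Tyms, which makes thymidylate, 4781, 3556 and 5368 in control and 1820.1, 2080.4 and 2165 in WNK1-deficient thymocytes (log2 fold change -1.16, SE 0.37, adjusted p = 0.0416). The groups did not overlap for either gene, and they lost their calls without control replicate 3 (adjusted p = 0.0927 and 0.132). Both calls were also lost with control replicate 1 or any single WNK1-deficient library left out. Dut (-0.86), which clears dUTP, and Umps (-0.68), of pyrimidine synthesis, were called as well.

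E2f1, an activator that drives S phase genes, stood at 1616, 1570.3 and 2177 in control and 973, 856 and 961 in WNK1-deficient thymocytes (log2 fold change -0.93, SE 0.28, adjusted p = 0.0353; -0.78, adjusted p = 0.136 without control replicate 3). Its call was also lost with control replicate 1 or any single WNK1-deficient library left out. E2f4, which acts mainly as a repressor, read 3784, 4939 and 4933 in control and 2907, 2564 and 2819 in WNK1-deficient thymocytes (log2 fold change -0.71, SE 0.17, adjusted p = 0.00713) and was the only lowered member called in both fits (-0.65, adjusted p = 0.0341 without). Of 13 E2F and pocket protein genes 4 were called lower and none higher, against 5.53% and 7.41% of all genes, the others being Tfdp1, the partner that E2F factors need to bind DNA (-0.75), and the repressor E2f6 (-0.62). There was 1 call in each direction without control replicate 3 (3.51% of all genes lower and 5.1% higher), E2f4 lower and E2f5, of the repressor group, higher (1.14, adjusted p = 0.0123). Of 10 cyclin and kinase genes of G1 and S phase only Cdk4, the kinase of D cyclins, was called (16477, 19120 and 20678 in control and 12575, 12226 and 11959 in WNK1-deficient thymocytes; log2 fold change -0.61, adjusted p = 0.0212), against 5.53% of all genes lower. It lost its call without control replicate 3 (adjusted p = 0.0846). In limma 7 of the 10 had an unadjusted p below the threshold of the calls, and 3 without control replicate 3. Over all 13888 genes 3789 and 3299 did. Of the 10, edgeR called 3 lower (6.77% of all genes), and DESeq2 3 lower and 1 higher (7.59% and 8.52%). The groups did not overlap for 5 lower and 2 higher genes of this list (17% and 17.4% of all genes). The CDK inhibitor genes went in both directions, with Cdkn1b higher (2436, 2178 and 1943 in control and 3109.9, 2993 and 3246 in WNK1-deficient thymocytes; log2 fold change 0.52, adjusted p = 0.0345) and Cdkn1a lower (173, 406 and 556 in control and 91.97, 167 and 138 in WNK1-deficient thymocytes; log2 fold change -1.40, adjusted p = 0.0247), and neither was called without control replicate 3 (adjusted p = 0.132 and 0.132).

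Genes of mitosis were not called. None of 25 passed in limma, edgeR or DESeq2, 0 were under an unadjusted p of 0.05 in limma, the median log2 fold change was -0.29, and 8 of the 25 had groups that do not overlap, all lower, where this was so for 17% of all genes. Top2a, the topoisomerase that untangles chromosomes, read 36310, 19222 and 32305 in control and 25366, 26673 and 26710 in WNK1-deficient thymocytes, and the proliferation marker Mki67 29493, 14595 and 24197 in control and 19559, 19929 and 18957 in WNK1-deficient thymocytes. Control replicate 1 was the highest and control replicate 2 the lowest of the 6 libraries for both genes, and the WNK1-deficient libraries lay between them.

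**Figure D4:**
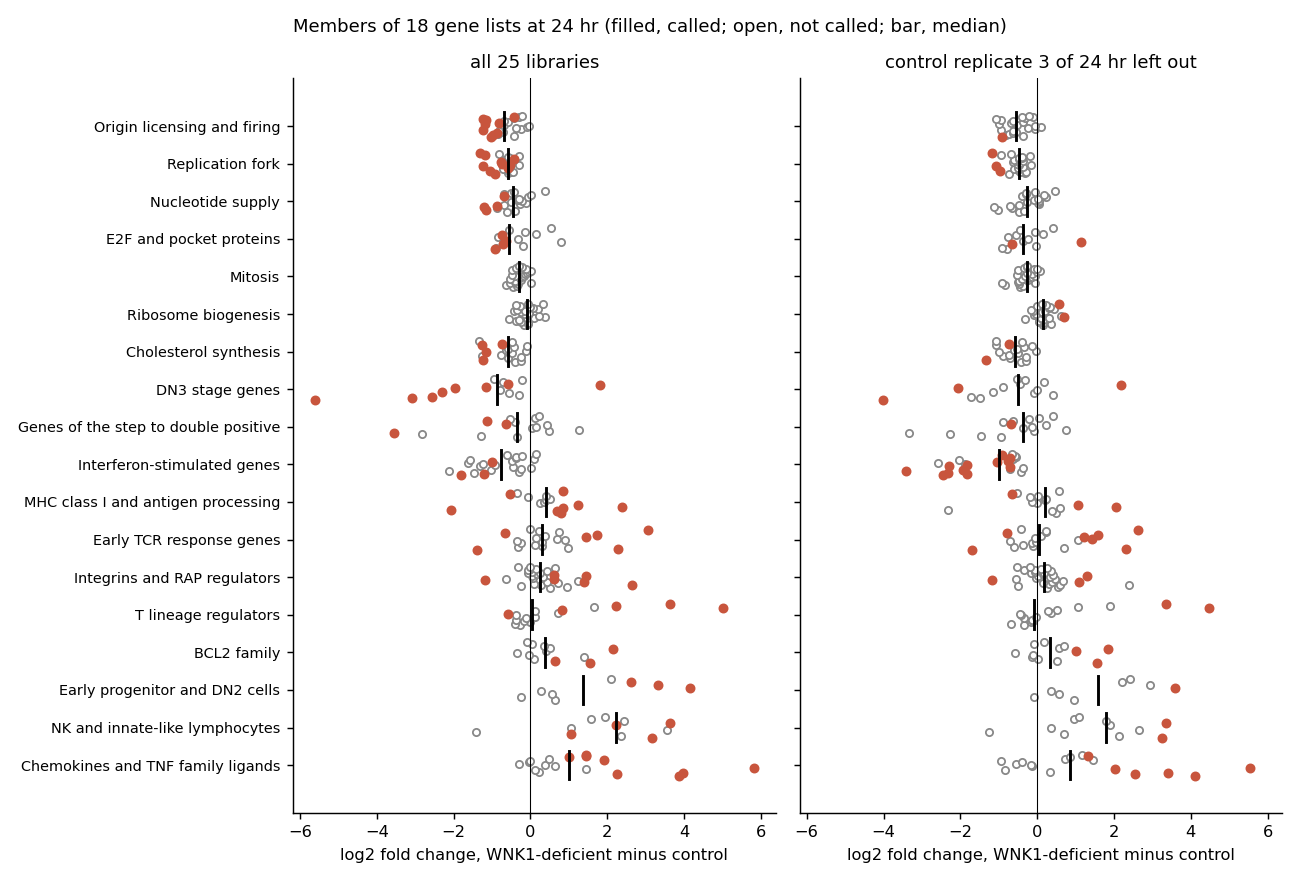
Log2 fold change at 24 hr of the tested members (points) of 18 gene lists, with all libraries (left) and with control replicate 3 left out (right), filled where called and open where not, the bar marking the median of the list. The medians of the replication lists stay below 0 in both panels (-0.60 and -0.48 for the fork), while calls drop there and rise from 3 to 12 among the interferon-stimulated genes.

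Genes of growth were called in few cases, with the cholesterol pathway the main exception. Of 10 genes of the MYC network only Mlx, a dimerisation partner in that network, was called (2119, 2420.4 and 1853 in control and 1632, 1604 and 1523 in WNK1-deficient thymocytes; log2 fold change -0.42, adjusted p = 0.0418), against 5.53% of all genes lower. Myc itself read 2068, 3136 and 9788 in control and 3798, 4286 and 3059 in WNK1-deficient thymocytes and was not called (log2 fold change -0.12, adjusted p = 0.878), with control replicate 3 the highest of the 6 libraries. The other 2 controls lay below WNK1-deficient replicates 1 and 2, so that the negative sign rests on control replicate 3. Of 25 genes of ribosome biogenesis none was called in limma (1 at an unadjusted p under 0.05), edgeR or DESeq2 (median -0.09). Without control replicate 3 Polr1a and Ddx21 were called higher, against 5.1% of all genes, and the median was 0.16. Ncl, for nucleolin, read 30221, 18757 and 45934 in control and 28446, 26769 and 24489 in WNK1-deficient thymocytes and Npm1, for nucleophosmin, 25980, 14065 and 45759 in control and 27215, 22926 and 24093 in WNK1-deficient thymocytes, each highest in control replicate 3 and lowest in control replicate 2. Of 9 genes of amino acid and transferrin uptake none was called in these tests (2 at an unadjusted p under 0.05 in limma), Slc38a1 reading 15341, 13937 and 14855 in control and 15911, 17431 and 14950 in WNK1-deficient thymocytes and Slc38a2 7508, 5356 and 7627 in control and 9149.6, 10641 and 9329 in WNK1-deficient thymocytes.

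Of 18 genes of cholesterol synthesis 4 were called lower and none higher (5.53% of all genes lower), the median was -0.58, and the groups of 14 did not overlap, all lower (17% of all genes). Mvk, mevalonate kinase, stood at 734, 1019.7 and 706 in control and 322, 319 and 387 in WNK1-deficient thymocytes (log2 fold change -1.24, SE 0.18, adjusted p = 0.000169; -1.34, adjusted p = 0.00038 without control replicate 3). Sqle, squalene epoxidase, read 1870.2, 1785 and 2584 in control and 872, 1012 and 870.2 in WNK1-deficient thymocytes (log2 fold change -1.16, SE 0.34, adjusted p = 0.0285; -0.996, adjusted p = 0.112 without). The groups did not overlap in these genes, and Mvk and Sc5d (-0.75; -0.74, adjusted p = 0.034 without), which acts late in the pathway, were the members called in both fits. With lane as a covariate 10 of the 18 were called lower, with DESeq2 9, with edgeR 6 and in the 6 libraries alone 7. The shares of all genes called lower were 7.06%, 7.59%, 6.77% and 3.12% in these fits.

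Of 16 genes of glycolysis 2 were called higher and 1 lower, against 7.41% and 5.53% of all genes, and the median was 0.14. The called genes were 2 glucose transporter genes, higher, and a lactate dehydrogenase gene, lower. Slc2a3, for GLUT3, stood at 1232, 1417 and 1044 in control and 5086, 6342 and 4873 in WNK1-deficient thymocytes (log2 fold change 2.14, SE 0.22, adjusted p = 4.2e-06), and was the largest difference of the list. Slc2a1, for GLUT1, read 774, 953 and 626 in control and 1058, 1194 and 1045 in WNK1-deficient thymocytes (log2 fold change 0.50, adjusted p = 0.0359), and Ldha 29903, 30623 and 35700 in control and 20270, 21633 and 17559 in WNK1-deficient thymocytes (log2 fold change -0.70, adjusted p = 0.0106), without an overlap between the groups. Slc2a1 and Ldha were not called without control replicate 3 (adjusted p = 0.182 and 0.0503), while Hk2, the first kinase of the pathway, was called higher (1.13, adjusted p = 0.0238).

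A few chains and kinases of the TCR pathway were called, in both directions. Cd247, the CD3ζ chain, stood at 18651, 24405 and 15883 in control and 9159.9, 8650.4 and 14148 in WNK1-deficient thymocytes (log2 fold change -0.90, SE 0.20, adjusted p = 0.00599), and the TCRβ constant region Trbc2, transcribed without a productive rearrangement, at 48557, 51122 and 40680 in control and 27674, 27437 and 33562 in WNK1-deficient thymocytes (log2 fold change -0.66, SE 0.19, adjusted p = 0.0263). The γ constant region Trgc1 was higher (13024, 13429 and 19226 in control and 19665, 20506 and 26932 in WNK1-deficient thymocytes; log2 fold change 0.56, SE 0.17, adjusted p = 0.0346), although WNK1-deficient replicate 1 came close to control replicate 3. These 3 calls of 8 members (1 higher and 2 lower, against 7.41% and 5.53% of all genes) held without control replicate 3. Reads of constant regions that lie in near-identical copies can be shared between them, so that the level of a single copy is uncertain.

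Among 24 genes that transmit the TCR signal 2 were called in each direction, close to the 7.41% higher and 5.53% lower of all genes. Lck, the kinase that starts the signal, was lower (43473, 53391 and 48425 in control and 23343, 24086 and 26628 in WNK1-deficient thymocytes; log2 fold change -0.97, SE 0.17, adjusted p = 0.000839; -0.97, adjusted p = 0.00379 without control replicate 3). Cblb, a ubiquitin ligase that restrains the signal, was higher (4798, 5761 and 3899 in control and 10236, 11749 and 7227 in WNK1-deficient thymocytes; log2 fold change 1.004, SE 0.23, adjusted p = 0.00694; 0.86, adjusted p = 0.0404 without). Neither gene had overlapping groups. Syk, a kinase used by the pre-TCR (-0.93), and Bcl10, an adaptor towards NF-κB (0.43), were called with control replicate 3 only (adjusted p = 0.124 and 0.172 without).

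Of 20 early TCR response genes 4 were called higher and 2 lower, against 7.41% and 5.53% of all genes. Spry2, an inhibitor of receptor signalling to RAS, read 87.1, 125 and 40.4 in control and 720.2, 914 and 413 in WNK1-deficient thymocytes (log2 fold change 3.07, SE 0.61, adjusted p = 0.00214), and Nr4a2, a nuclear receptor of the NUR77 family, 54.3, 58.2 and 59.6 in control and 355, 397 and 157 in WNK1-deficient thymocytes (log2 fold change 2.27, SE 0.40, adjusted p = 0.000824). Dusp4, a phosphatase that inactivates MAP kinases, read 922, 833 and 637 in control and 2360.1, 3667 and 2049.8 in WNK1-deficient thymocytes (log2 fold change 1.73, SE 0.34, adjusted p = 0.00203), and the activation marker Cd69 1403, 939.9 and 695 in control and 2677, 3302 and 2140.2 in WNK1-deficient thymocytes (log2 fold change 1.46, SE 0.32, adjusted p = 0.00526). No group overlapped for these 4 genes, and WNK1-deficient replicate 2 had the highest level of each. The lowered members were Nr4a1 (-1.39), which codes for NUR77, and the phosphatase gene Dusp5 (-0.67). All 6 were called without control replicate 3 as well, together with Jun (1.44).

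The differences in genes of the DN3 stage leaned on control replicate 3. Of 14 members 7 were called lower and 1 higher (median -0.87), against 5.53% and 7.41% of all genes. Without that library 2 were called lower and 1 higher (median -0.49), against 3.51% and 5.1%. Dntt, the terminal transferase, stood at 8104, 8812 and 47329 in control and 3122, 1666 and 3223 in WNK1-deficient thymocytes (log2 fold change -2.55, SE 0.60, adjusted p = 0.00721; -1.72, adjusted p = 0.0522 without), and Notch3, a receptor of DN3 cells, at 397, 759 and 6107 in control and 240.3, 180.4 and 355 in WNK1-deficient thymocytes (log2 fold change -2.30, SE 0.60, adjusted p = 0.0153; -1.14, adjusted p = 0.0614 without). Rag2 was at 12.6, 4.59 and 17.04 in WNK1-deficient libraries (log2 fold change -3.07, adjusted p = 0.0325; -1.49, adjusted p = 0.203 without). Control replicate 3 was far above the other controls in each, but all controls were above all WNK1-deficient libraries. Ptcra and the Notch target Dtx1 (-1.97; -2.06, adjusted p = 0.00578 without) were lower in both fits, Nrarp and Tcf12 only with control replicate 3, and the ETS factor Erg was higher (1.81; 2.18, adjusted p = 0.0138 without).

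Of 15 genes of the step to the DP stage 3 were called lower, against 5.53% of all genes. Ets1, an ETS factor of T cell development, read 37018, 30685 and 29666 in control and 21816, 21067 and 19802 in WNK1-deficient thymocytes (log2 fold change -0.63, SE 0.14, adjusted p = 0.00561; -0.69, adjusted p = 0.00852 without control replicate 3), and Arpp21, a gene raised in DP cells, 2493, 2642 and 7234 in control and 1664, 1419 and 1889.9 in WNK1-deficient thymocytes (log2 fold change -1.14, SE 0.30, adjusted p = 0.0149; -0.64, adjusted p = 0.0907 without). The groups of both genes did not overlap, and Ets1 was the only member called in both fits. Cd4, Cd8a and Cd8b1, the coreceptors, were not called (log2 fold change -0.34, -1.29 and -2.82).

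Of 16 regulators of the T lineage 4 were called higher and 1, Tcf12, lower, against 7.41% and 5.53% of all genes. Besides Zbtb7b these were Eomes (1.64, 8.32 and 1.84 in control and 84.6, 64.2 and 22.3 in WNK1-deficient thymocytes; log2 fold change 3.62, SE 0.79, adjusted p = 0.0046) and Tbx21 (23.8, 41.6 and 15.6 in control and 131, 138 and 96.98 in WNK1-deficient thymocytes; log2 fold change 2.23, SE 0.68, adjusted p = 0.0353), T-box factors of effector and innate-like lymphocytes, and Tox, a regulator of lineage choice (11292, 13764 and 6686 in control and 16918, 19848 and 16683 in WNK1-deficient thymocytes; log2 fold change 0.81, adjusted p = 0.0338). Eomes and Tbx21 were low in control, and no library of one genotype overlapped with the other. Zbtb7b and Eomes were called in both fits, Tbx21 and Tox only with control replicate 3 (adjusted p = 0.131 and 0.196 without). Tcf7, Gata3, Bcl11b and Runx1, which hold the T cell programme, were not called, and their log2 fold changes were -0.28, -0.01, -0.18 and -0.38.

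Several genes for ligands and receptors of migration were higher in WNK1-deficient thymocytes. Of 17 chemokine and TNF family ligands 8 were called higher and none lower, against 7.41% of all genes called higher, with a median of 1.01. Ccl5, which attracts T cells and monocytes, read 44.4, 105 and 21.1 in control and 768, 917 and 573 in WNK1-deficient thymocytes (log2 fold change 3.97, SE 0.75, adjusted p = 0.0014), Ccl3 0.822, 3.33 and 3.67 in control and 64.5, 167 and 9.17 in WNK1-deficient thymocytes (log2 fold change 3.86, SE 0.99, adjusted p = 0.0133) and Ccl4 4.93, 16.6 and 18.4 in control and 67.5, 115 and 26.2 in WNK1-deficient thymocytes (log2 fold change 2.24, SE 0.55, adjusted p = 0.0105), the last 2 being chemokines of activated lymphocytes and macrophages. Levels of Ccl3 and Ccl4 were low and spread widely within the WNK1-deficient group, replicate 3 lying nearest to the controls. The other called members were Xcl1 and the TNF family genes Tnfsf8, Tnfsf10, Tnfsf11 and Tnfsf14. Leaving out control replicate 3, 6 were called higher (5.1% of all genes), with Cxcl16 in place of Tnfsf8, Tnfsf10 and Tnfsf14.

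Of 16 receptors for chemokines and sphingosine phosphate 4 were called higher and 2 lower (7.41% and 5.53% of all genes). Cxcr5 read 37.8, 34.9 and 4.59 in control and 768, 751 and 577 in WNK1-deficient thymocytes (log2 fold change 5.13, SE 0.68, adjusted p = 5.93e-05), and Ccr2, a receptor of monocytes and effector cells, 281, 176 and 230.3 in control and 1004, 897 and 602 in WNK1-deficient thymocytes (log2 fold change 1.85, SE 0.49, adjusted p = 0.0161). Cx3cr1, the fractalkine receptor, read 169, 78.2 and 52.3 in control and 387, 394 and 369.6 in WNK1-deficient thymocytes (log2 fold change 2.10, SE 0.46, adjusted p = 0.0046). These 3 genes were called in both fits, with no overlap. Cxcr4, the receptor that thymocytes use together with the pre-TCR, was lower (5427, 8687 and 7667 in control and 4293, 4469.7 and 5588 in WNK1-deficient thymocytes; log2 fold change -0.58, adjusted p = 0.0449; -0.53, adjusted p = 0.132 without control replicate 3), and so was S1pr2 (-0.84; -0.76, adjusted p = 0.0504 without), and for Cxcr4 control replicate 1 lay below WNK1-deficient replicate 3.

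Of 29 integrin and RAP genes 5 were called higher and 1 lower (median 0.25), against 7.41% and 5.53% of all genes. Leaving out control replicate 3 gave 2 and 1, with 5.1% of all genes called higher, a share close to that of the list. Rap2a, a small GTPase of the RAP family that regulates adhesion, read 527, 472 and 359 in control and 1117, 1312 and 1271 in WNK1-deficient thymocytes (log2 fold change 1.46, SE 0.23, adjusted p = 0.00028), and the integrin chain Itgav 1194, 1056 and 594 in control and 2436, 2744 and 2012 in WNK1-deficient thymocytes (log2 fold change 1.39, SE 0.27, adjusted p = 0.00173). Itga5, of the fibronectin receptor, was lower (665, 968 and 845 in control and 348, 413 and 316 in WNK1-deficient thymocytes; log2 fold change -1.19, SE 0.23, adjusted p = 0.00153). These 3 calls held without control replicate 3. Itgax, an integrin chain of dendritic and innate-like cells (16.4, 64.9 and 18.4 in control and 232, 237 and 98.3 in WNK1-deficient thymocytes; log2 fold change 2.65, adjusted p = 0.0185), Icam1 and Rap2b lost theirs. The chains of LFA1, Itgal (0.52, adjusted p = 0.163) and Itgb2 (0.95, adjusted p = 0.104), and Rap1a (0.33, adjusted p = 0.326) were not called here.

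Of 25 actin and motility genes 1 was called higher and 2 lower, which is close to the 7.41% and 5.53% of all genes and sets the list apart in neither direction. Fscn1, which bundles actin filaments, read 22.2, 19.96 and 13.8 in control and 107, 88.7 and 87.8 in WNK1-deficient thymocytes (log2 fold change 2.30, SE 0.66, adjusted p = 0.0257). Ezr, which ties the membrane to actin, read 23498, 28778 and 25033 in control and 17247, 20248 and 19375 in WNK1-deficient thymocytes (log2 fold change -0.44, adjusted p = 0.0443), and the small GTPase gene Rac1 12411, 10992 and 10473 in control and 8966, 8822 and 8729 in WNK1-deficient thymocytes (log2 fold change -0.35, adjusted p = 0.0229). The differences in Ezr and Rac1 were small beside those above, and only Rac1 was called in both fits. Of 8 GIMAP GTPases, which support lymphocyte survival, only Gimap1 was called higher, against 7.41% of all genes (3214, 4135 and 2314 in control and 4309, 4862 and 4761 in WNK1-deficient thymocytes; log2 fold change 0.57, adjusted p = 0.0354). It was not called without control replicate 3 (adjusted p = 0.206).

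Genes on both sides of cell survival were higher. Bcl2, which blocks apoptosis, stood at 3286, 2753 and 3165 in control and 8354, 9870.3 and 8562 in WNK1-deficient thymocytes (log2 fold change 1.54, SE 0.28, adjusted p = 0.000895; 1.57, adjusted p = 0.00354 without control replicate 3). Bbc3, for PUMA, which promotes apoptosis, stood at 114, 135 and 65.1 in control and 441, 482 and 423 in WNK1-deficient thymocytes (log2 fold change 2.15, SE 0.32, adjusted p = 0.000185; 1.84, adjusted p = 0.00162 without). In both genes every WNK1-deficient library lay well above every control. Bcl2l1, for BCL-XL, read 869.8, 1226 and 809 in control and 1368, 1522 and 1531 in WNK1-deficient thymocytes (log2 fold change 0.63, adjusted p = 0.0475; 0.51, adjusted p = 0.173 without). The call of Bcl2l1 was also lost with edgeR and in the 6 libraries alone. These 3 of the 12 members were called, all higher, against 7.41% of all genes. Bcl2l11, for BIM, was called only without control replicate 3 (1.002, adjusted p = 0.00427), where 3 of the 12 were called higher, against 5.1% of all genes.

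Of 15 targets of p53, 4 were called higher and 1 lower, against 7.41% and 5.53% of all genes, so that the share lower was close to that of all genes, and the median was -0.01. Perp, a membrane protein of the p53 response, read 31.2, 34.9 and 11.01 in control and 243, 216 and 111 in WNK1-deficient thymocytes (log2 fold change 2.91, SE 0.71, adjusted p = 0.00952), and the kinase gene Plk2 41.1, 41.6 and 18.4 in control and 95.7, 97.8 and 58.98 in WNK1-deficient thymocytes (log2 fold change 1.35, adjusted p = 0.0221). Cdkn1a, the best known of the targets, was lower. Bbc3 and Zmat3, both higher, were the ones called without control replicate 3.

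For interferon-stimulated genes control replicate 3 acted in the other direction, since it lay with the WNK1-deficient libraries. Of 22 members 3 were called lower with it and 12 without it (medians -0.77 and -0.99), against 5.53% and 3.51% of all genes. Isg15, a ubiquitin-like modifier, read 2267, 1994 and 567 in control and 286, 399 and 522 in WNK1-deficient thymocytes (log2 fold change -1.81, SE 0.52, adjusted p = 0.0261; -2.44, adjusted p = 0.00427 without). Isg20, a nuclease, read 1943, 2232 and 567 in control and 507, 564 and 702 in WNK1-deficient thymocytes (log2 fold change -1.20, SE 0.36, adjusted p = 0.031; -1.83, adjusted p = 0.000276 without), the only one of the 3 with overlapping groups. Bst2, for tetherin, read 2188, 2014 and 1915 in control and 922, 995 and 1139 in WNK1-deficient thymocytes (log2 fold change -1.004, SE 0.26, adjusted p = 0.0148; -1.05, adjusted p = 0.0323 without), and here control replicate 3 lay with the other controls. The 12 called without that library ran from -3.42 for Ifit3 to -0.70 and included Ifit1, Irf7, Stat2, Mx1 and Oas1a.

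Of 15 genes of MHC class I and antigen processing 6 were called higher and 2 lower (median 0.40), against 7.41% and 5.53% of all genes. Without control replicate 3 the counts were 2 and 1 (median 0.21; 5.1% and 3.51% of all genes), H2-Q6 and H2-Q7 being the raised members and the proteasome gene Psmb8 the lowered one. H2-Q6, a class Ib gene, stood at 4299.5, 2126 and 1530.5 in control and 9569, 14731 and 14325 in WNK1-deficient thymocytes (log2 fold change 2.39, SE 0.47, adjusted p = 0.00195; 2.06, adjusted p = 0.0145 without control replicate 3), and H2-Q7 at 12504, 11365 and 8472 in control and 19857, 26124 and 30143 in WNK1-deficient thymocytes (log2 fold change 1.23, SE 0.26, adjusted p = 0.00378; 1.07, adjusted p = 0.024 without). Nlrc5, which switches on class I genes, read 3453, 3052 and 1758 in control and 4413, 5089 and 4877 in WNK1-deficient thymocytes (log2 fold change 0.85, adjusted p = 0.0475; 0.56, adjusted p = 0.239 without). H2-Q2 went the other way (1084, 627 and 477 in control and 100.1, 225 and 191 in WNK1-deficient thymocytes; log2 fold change -2.07, SE 0.66, adjusted p = 0.0416; -2.33, adjusted p = 0.0551 without). Genes of the Q region are close copies whose reads can be shared, so that the level of each is uncertain.

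The sort was checked by markers of T cells and of other cells. All 9 genes of the T cell identity list were tested and 2 were called lower, Lck and Thy1, against 5.53% of all genes. Thy1, which codes for the antigen Thy1.2 used in the sort, read 29875, 31606 and 44164 in control and 10980, 11544 and 17950 in WNK1-deficient thymocytes (log2 fold change -1.40, SE 0.22, adjusted p = 0.000295). Cd44, for the marker gated out, was at 249, 354 and 127 in control and 663, 741 and 689 in WNK1-deficient thymocytes, without an overlap of the groups, and was not called (log2 fold change 1.64, adjusted p = 0.0741). The other 6 T cell genes were at high levels in every library, Cd3e for instance at 15405, 21936 and 17724 in control and 17322, 17980 and 18276 in WNK1-deficient thymocytes.

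Some markers of other cell types moved with the genotype. Of 8 genes of early progenitors and DN2 cells 3 were called higher, against 7.41% of all genes. They were Lyl1, Lmo2 (83.03, 149.7 and 48.6 in control and 1067, 1235 and 479.7 in WNK1-deficient thymocytes; log2 fold change 3.33, SE 0.98, adjusted p = 0.0289) and Hhex (167, 159.7 and 66.98 in control and 976, 722 and 609 in WNK1-deficient thymocytes; log2 fold change 2.63, SE 0.83, adjusted p = 0.0398), all 3 also genes of early thymocytes. The summed level of the list ran from 794 to 1438 in control and 3866 to 4771 in WNK1-deficient libraries, while Flt3, Cd34 and Spi1 stayed under 100 in every library. Without control replicate 3 only Lyl1 was called (adjusted p = 0.048), against 5.1% of all genes called higher.

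Of 11 genes of NK and innate-like lymphocytes 4 were called higher and none lower (median 2.23), against 7.41% of all genes called higher. Ncr1, an NK receptor, read 4.93, 14.97 and 10.1 in control and 108, 118 and 58.98 in WNK1-deficient thymocytes (log2 fold change 3.17, SE 0.84, adjusted p = 0.0158), and Nkg7, a granule protein, 4887, 7244 and 2957 in control and 9153, 9482 and 10619 in WNK1-deficient thymocytes (log2 fold change 1.05, SE 0.32, adjusted p = 0.0357), the others being Eomes and Tbx21. Without control replicate 3 only Ncr1 and Eomes were called (5.1% of all genes), and Nkg7 was at 0.71, adjusted p = 0.19 there, with adjusted p = 0.0581 in edgeR and 0.0792 in the 6 libraries alone. Apart from Gzma, Nkg7, Il2rb and Prf1 no member passed 300 in any library, and Gzma, for granzyme A, stood at 18721, 9202 and 18615 in control and 4952, 3696 and 8988 in WNK1-deficient thymocytes, every WNK1-deficient library below every control (log2 fold change -1.43, adjusted p = 0.0624). The summed level was 23105 to 28345 in control and 25510 to 29483 in WNK1-deficient libraries and overlapped between the genotypes. Gzma, which went the other way, makes up a large part of this sum, so that it does not show the level of the other members. Of the 11 members 8 had groups that do not overlap with WNK1-deficient libraries higher, and 1 with them lower (17.4% and 17% of all genes). Chemokines such as Xcl1 and Ccl5 are also made by these cells, and their part in the values was not tested.

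Several defining genes of B cells were at or near 0. Of 3 tested members 1 was called higher and 1 lower, against 7.41% and 5.53% of all genes. Ms4a1 and Pax5 were at 0 in all 6 libraries, Cd79a stayed under 3, while Blk (996, 1288 and 1043 in control and 3109, 3137 and 3194 in WNK1-deficient thymocytes; log2 fold change 1.51, adjusted p = 0.00237) and Cd79b (1105, 1484 and 983 in control and 484, 501 and 562 in WNK1-deficient thymocytes; log2 fold change -1.19, adjusted p = 0.00125), which early thymocytes also express, were called in opposite directions, and the constant region gene Ighm (5668, 4618 and 6895 in control and 8225, 7538 and 8218 in WNK1-deficient thymocytes) was called higher only when control replicate 3 was left out (0.64, adjusted p = 0.0358). No neutrophil gene reached a mean of 10, and their summed level was 8.32 to 13.8 in control and 7.86 to 15.3 in WNK1-deficient libraries. Of 6 tested genes of macrophages and dendritic cells, 4 of thymic epithelium and 3 of erythroid cells none was called in limma, edgeR or DESeq2, and at an unadjusted p under 0.05 in limma there were 2, 0 and 0. Lyz2, the macrophage lysozyme, read 64.9, 374 and 349.6 in control and 239, 251 and 143 in WNK1-deficient thymocytes, Cd68 57.5, 109.8 and 49.5 in control and 115, 136 and 107 in WNK1-deficient thymocytes, the epithelial Epcam 702, 627 and 1022 in control and 958, 1038 and 1008 in WNK1-deficient thymocytes and Krt8 34.5, 29.9 and 30.3 in control and 35.6, 10.7 and 28.8 in WNK1-deficient thymocytes. Haemoglobin was highest in control replicate 2, with Hba-a2 at 713, 2068 and 712 in control and 803, 214 and 431 in WNK1-deficient thymocytes and Hba-a1 at 293, 988 and 238 in control and 286, 42.8 and 159 in WNK1-deficient thymocytes, and none of 12 mitochondrial transcripts was called by these tools (1 at an unadjusted p under 0.05 in limma), mt-Co1 reading 218090 in that library and 323740 to 464230 in the others, and mt-Cytb 78773 there and 89902 to 155670 in the others.

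How far the difference between the genotypes belongs to 24 hr was asked by comparing it with the mean of the differences at 0, 3 and 48 hr, which share no library with it. Of the 1029 genes called higher at 24 hr, 509 (49.5%) were also called higher at 0 hr, 367 (35.7%) at 3 hr and 427 (41.5%) at 48 hr, which is 33.3%, 45.9% and 49.5% of the genes called higher at those times. At those times 11%, 5.76% and 6.21% of the tested genes were called higher. Of the 768 called lower, 356 (46.4%), 180 (23.4%) and 263 (34.2%) were called lower at 0, 3 and 48 hr, 23.4%, 40.8% and 26.7% of the genes called lower there, where 11%, 3.18% and 7.09% of the tested genes were called lower. At all 4 times 187 genes were called higher and 104 lower, and 332 and 316 were called at 24 hr and at no other time. A call at 24 hr and none elsewhere does not show that the differences differ, and the test of that was passed by 26 genes with a higher and 23 with a lower difference at 24 hr (0.187% and 0.166% of the genes tested). With control replicate 3 left out the test was passed by 12 and 9 genes, without control replicates 1 and 2 by 7 and 13 and by 62 and 45, and without WNK1-deficient replicates 1, 2 and 3 by 2 and 2, 3 and 2, and 20 and 14. The mice of 3 and 24 hr were male by their transcripts and those of 0 and 48 hr female, the genotypes of each time being of the same sex, so that time and sex cannot be told apart in this test. At 0 hr the control libraries also came from lane 1 and the WNK1-deficient libraries from lane 2, a split in which the effects of lane and of genotype cannot be told apart.

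The medians of the replication lists were nearer to 0 at the other times. The median over the licensing genes was 0.24 at 0 hr, -0.07 at 3 hr and 0.02 at 48 hr, beside -0.70 at 24 hr, and over the fork genes 0.14, -0.01 and 0.06, beside -0.60. At 0 hr 2 licensing genes were called higher (11% of all genes), Dbf4, of the kinase that fires origins (0.84, adjusted p = 0.0414), and the origin recognition subunit gene Orc5 (0.44, adjusted p = 0.0484), and no other licensing or fork gene was called at 0, 3 or 48 hr. Chaf1b was at -0.52, -0.14 and -0.35 at these times. Limma called 0 of the 48 genes in the test of the difference. An unadjusted p under 0.05 was reached by 14 of the licensing and 21 of the fork genes, and by 1654 of all 13888 genes. With edgeR 0 of the 48 were called, and 40 of all genes. DESeq2 called 3, all fork genes, and 221 of all genes. Gins2, for example, was at -1.24 at 24 hr and between -0.22 and -0.07 at the other times (difference -1.08, adjusted p = 0.226). Cholesterol synthesis was lower at other times too, with medians of -0.53, -0.51 and -0.13 at 0, 3 and 48 hr. At these times 7, 2 and 2 of the 18 genes were called lower, against 11%, 3.18% and 7.09% of all genes.

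The largest differences of 24 hr from the other times among the genes that passed this test and had a mean of at least 100 were in Xcl1 (4.89, SE 1.04, adjusted p = 0.0409) and Igfbp7 (4.84, SE 1.01, adjusted p = 0.0388). The difference between the genotypes in Xcl1 was 0.73 at 0 hr, 1.23 at 3 hr and 0.80 at 48 hr on the log2 scale, none of them called, and at 48 hr the mean was 33.2 for control and 103 for WNK1-deficient libraries. Zbtb7b (3.84, adjusted p = 0.0253) and Plek (3.37, adjusted p = 0.0242) were called higher at 48 hr as well (2.93 and 1.75), and so was Ctla2a, a protease inhibitor (229, 433 and 472 in control and 3128, 2616 and 3318 in WNK1-deficient thymocytes; 3.06 at 24 hr, 2.52 at 48 hr, difference 2.13, adjusted p = 0.049). These 5 genes differed between the genotypes by less at 0 and 3 hr than at 24 hr.

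On the lower side, H2-Q2 (-3.81, adjusted p = 0.0332) and Gzma (-2.89, adjusted p = 0.0325) were called higher without WNK1 at 0 hr (3.08 and 1.86) and at 3 hr (2.28 and 2.07) and lay below control at 24 hr (-2.07 and -1.43, the latter not called). Akap6, an anchor of protein kinase A, read 146, 98.1 and 229 in control and 45.2, 21.4 and 105 in WNK1-deficient thymocytes (-1.65 at 24 hr, difference -2.60, adjusted p = 0.0242), with overlapping groups. Tmprss4, a membrane protease, read 491, 482 and 537 in control and 80.1, 96.3 and 121 in WNK1-deficient thymocytes (-2.35, difference -2.45, adjusted p = 0.0099), and Syt13 differed by -2.36 (adjusted p = 0.0491). Of the list members named above Cblb and Thy1 passed as well. Cblb differed by 1.87 (adjusted p = 0.00304), being lower without WNK1 at 0 hr (-1.39) and higher at 24 hr, and Thy1 by -1.38 (adjusted p = 0.0253), and Thy1 was called at 24 hr and at none of the other times.

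**Figure D5:**
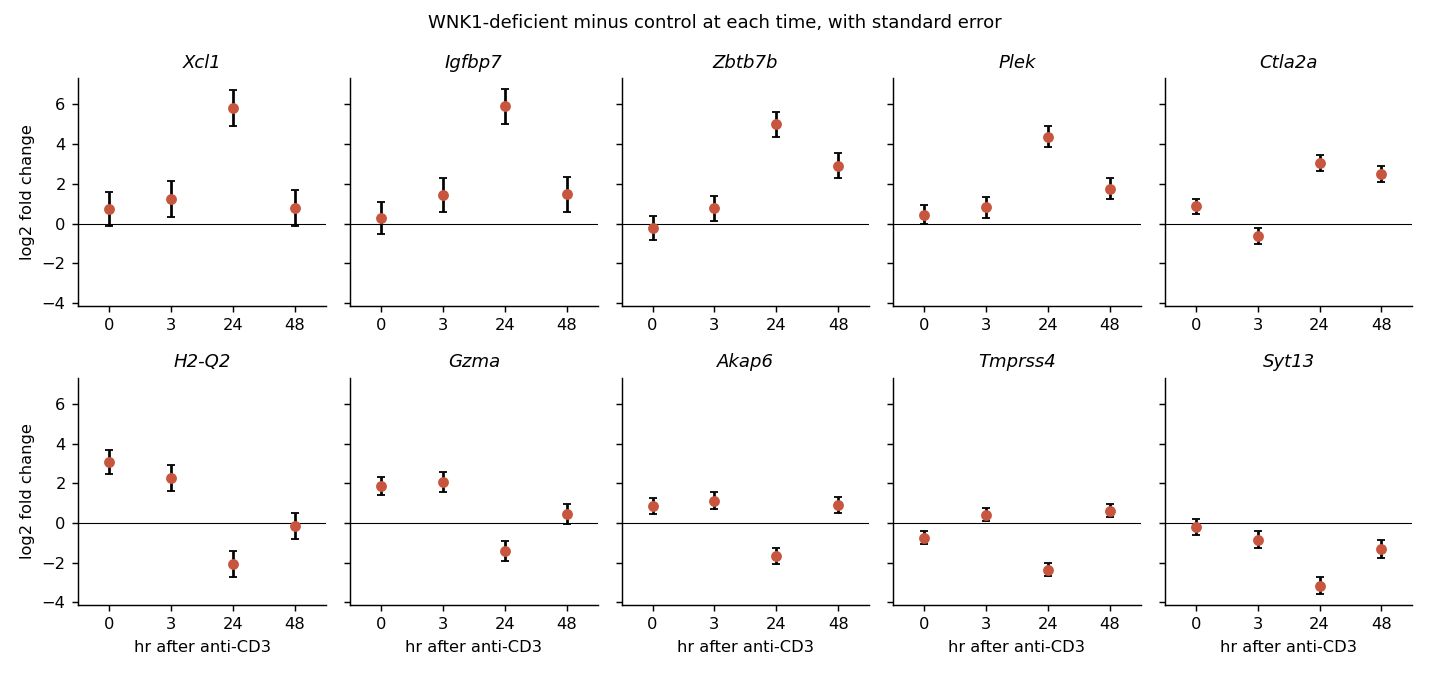
Log2 fold change between WNK1-deficient and control thymocytes (vertical axis, points with their standard error) at 0, 3, 24 and 48 hr after anti-CD3ε (horizontal axis) in the 10 genes with the largest difference of 24 hr from the other times. Xcl1 is at 5.81 at 24 hr and at 0.73 to 1.23 at the other times, and H2-Q2 and Gzma change from above 0 at 0 and 3 hr to below 0 at 24 hr.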

How the data were processed

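Messenger RNA of sorted thymocytes was sequenced as 75-base single reads from stranded polyA libraries. According to the submitters' processing notes the authors used Trimmomatic 0.36, STAR 2.5.2a and RSEM 1.2.31 with GRCm38, and DESeq2 1.18.1 in R 3.4.1. The deposited values are a signal per gene, that is RSEM counts after division by DESeq2 size factors. A whole-read step was recovered from the low values, so that 100% of the values of the 6 libraries came out as whole counts within 0.001 of a read, and depth was read from these. Of 48795 genes 13888 had a mean of at least 10 over the 6 libraries of 24 hr, and 12831 of these had a symbol, 11496 from the gene name table and 1335 through RefSeq synonyms. Promoters are from RefSeq (GRCm38.p6). Bcl2a1a, Bcl2a1d, Cdkn2d, H2-Q1, Hbb-bs, Hbb-bt, Hmgcs1, Psmb9 and Trdc were not analysed here.

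Values were tested as log2(value + 1) with limma 3.58.1 (R 4.3.3) over all 25 libraries, with 1 mean for each of the 8 groups and a trended prior, which leaves 17 residual degrees of freedom. The contrasts were WNK1-deficient minus control at 24 hr, and this difference minus the mean of those at 0, 3 and 48 hr, each with Benjamini-Hochberg adjustment and a call at 0.05. The fit was tested on simulated data. Count tests with edgeR 4.0.16 and DESeq2 1.42.0 on the recovered reads, other pseudocounts (0.5 and 5), filters and scalings, library weights, lane and replicate terms, the 6 libraries alone and each library left out were alternatives, and the 6 libraries alone without control replicate 3 were added after seeing the data.

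The members and gene lists were chosen with earlier results of these data known. Genes named are the 12 in each direction with the largest smaller fold change of the fits with and without control replicate 3. They were taken among genes called in both with the same sign, with groups that do not overlap and a mean of at least 100. Also named are up to 4 called members of each list with the largest fold change, or the 2 most abundant where none was called, and the WNK pathway. Further genes are the 5 in each direction with the largest difference of 24 hr from the other times, among those that passed that test with a mean of at least 100. The last are the 5 in each direction that set control replicate 3 apart. Other list members were named after their values were seen. A few genes that the rule would name are not reported here.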

Additional observations from a re-analysis of the deposited data

Results flagged for a closer look

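The difference between the genotypes at 24 hr differed from the mean of the differences at the other times (limma, Benjamini-Hochberg) in the 10 genes named by the rule. On the log2 scale it was larger at 24 hr by 4.89 for Xcl1, 4.84 for Igfbp7, 3.84 for Zbtb7b, 3.37 for Plek and 2.13 for Ctla2a. It was lower by -3.81 for H2-Q2, -2.89 for Gzma, -2.60 for Akap6, -2.45 for Tmprss4 and -2.36 for Syt13. Without control replicate 3, 2 of the 10 passed the test, without WNK1-deficient replicate 1, 0, and without replicate 2, 1, while DESeq2 called all 10 and edgeR 7. No direction changed under any of these settings. The mice of 24 hr were male by their transcripts, as were those of 3 hr, and those of 0 and 48 hr female.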

How the results depend on the processing

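The count of genes called at 24 hr (1029 higher, 768 lower) rose to 2329 and 2093 with library weights and fell to 582 and 433 in the 6 libraries alone and to 113 and 76 within lane 4, where a lone WNK1-deficient library is assumed to vary like the other groups. Leaving out 1 library gave 530 to 1175 higher and 368 to 825 lower. All other settings stayed within 1.5 times, with edgeR at 865 and 940 and DESeq2 at 1183 and 1054. The difference of 24 hr from the other times (26 higher, 23 lower) was less stable. It gave 55 higher with a pseudocount of 5, 49 higher without the filter, 13 and 13 with a mean of at least 100, 54 and 59 after quantile normalization, 736 and 652 with library weights, 36 lower with lane as a covariate, 16 higher with edgeR and 101 and 120 with DESeq2, and leaving out 1 library gave 2 to 62 higher and 2 to 45 lower. This second contrast was not run within lanes or on the 6 libraries alone, where it has no value. The cause of these shifts was not tested.

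The correlation of same-numbered libraries' deviations from their group means was 0.034, 0.007 and 0.011, so that no pairing was seen. A shared litter or day of handling was not tested. With a replicate block 902 genes were higher and 636 lower at 24 hr, and the difference of 24 hr from the other times gave 11 and 12. Of 108 named values at 24 hr, 100 kept direction and call with the block and 8 lost the call, while 70 kept both without control replicate 3, 101 with edgeR and 77 in the 6 libraries alone. Both were kept by 79 and 96 without control replicates 1 and 2, and by 68, 61 and 78 without WNK1-deficient replicates 1, 2 and 3.

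Among the 108 named values checked at 24 hr, the direction changed for 1 uncalled gene. Myc, Ncl and Npm1 were not among these values. Slc12a9 was at 0.014 with a common upper quartile, 0.037 with a common total, 0.018 with lane as a covariate, 0.19 within lane 3, 0.027 within lane 4 and at -0.14 to 0.12 when 1 library was left out.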
